A study of Aegilops tauschii x Triticum turgidum and Aegilops tauschii and Triticum turgidum subsp. durum with 18 samples.

Results

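Of the 61179 wheat probe sets examined, 30 were high in a tetraploid wheat and lower in both diploid parents. In every group of synthetic hexaploids made from them, the mean of these 30 lay within or near the range of the diploid means. The members were chosen on measured values. Both diploid parents had to have a mean log2 expression value of 5 or more, and the tetraploid parent a mean at least 2 above the higher of them. Each of 3 synthetic groups then had to have a mean between 0.9 below the lower and 0.7 above the higher diploid mean, an interval called the window here. The parental part of this rule was met by 291 probe sets, called Joyau-high below after the tetraploid cultivar, and 261 of them were not members.

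The study measured RNA from whole, untreated plants of 40 days on 18 Affymetrix wheat arrays, in 9 groups of 2 arrays. Joyau, a cultivar of Triticum turgidum, was the tetraploid parent. Accession 36 of Aegilops tauschii spp. strangulata (Ae36) and accession 54 of Aegilops tauschii spp. tauschii (Ae54) were the diploid ones. Equal amounts of Joyau RNA and RNA of one accession were also combined and hybridised as mix36 and mix54. The synthetic hexaploids were selfed generation 0 of the hybrid of Joyau with accession 36 (S0_36, replicates 3 and 9) and selfed generations 0 and 1 of the hybrid with accession 54 (S0_54, replicates 3 and 4, and S1_54, replicates 5 and 7). Courtot, a cultivar of Triticum aestivum, was the natural hexaploid. The labels put the word hexaploid in the genotype field of every sample, parents included, so the groups rest on the descriptions. There was 1 tetraploid cultivar and 1 natural hexaploid cultivar, so what belongs to the cultivar and what belongs to its ploidy cannot be told apart.

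Bread wheat is an allopolyploid. Its A and B genomes come from a tetraploid wheat and its D genome from Aegilops tauschii, so most of its genes are present as homoeologous copies, one from each genome. A probe set on this type of array usually reports the summed signal of the copies it matches, and it matches copies of different genomes to different degrees. When parents differ in the level of a transcript, a hybrid or polyploid can show a level between them or a level close to one of them, and the latter is known as expression-level dominance. Low levels in these plants are levels of a probe set, and which copy carries the remaining signal was not measured.

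The arrays had medians of 2.86 to 3.04 on the log2 scale, and 11895 to 14132 probe sets per array reached 5. Ta.861.1.S1_at, which the probe table pairs with petC, a subunit of the photosynthetic cytochrome complex, lay between 12.96 and 14.18 on all 18 arrays. TaAffx.128418.105.S1_at, also paired with petC, lay between 2.37 and 2.93. The labels of Ae54 replicate 1 conflict. Its organism field names the hybrid and its protocol field the mix with accession 54, while its description names accession 54 itself. Over all tested probe sets it differed from the other Ae54 array by an SD of 0.556 and from the mix54 arrays by 1.60 and 1.61 on the log2 scale, with correlations of 0.971 against 0.739. The arrays of each mix differed far less than replicates elsewhere, with a mean SD over the members of 0.0388 in mix36 and 0.0409 in mix54 against 0.144 to 0.352 in the plant groups. Each mix was therefore counted as 1 sample. The other replicates are called biological in the labels, which do not say how plants were grown together, so p-values measure the spread between these samples. The amount of total RNA was 20 µg in Ae36 and in replicate 2 of Ae54 but 40 µg elsewhere, and its part in the differences from Ae. tauschii was not tested.

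Joyau means of the 30 members ranged from 7.99 to 12.70 and lay 2.01 to 4.00 above the higher Ae. tauschii mean, a median difference of 2.68 and a median fold of 6.42. The mean of the 3 synthetic groups lay below Joyau by a median of 2.95 on the log2 scale, between 3.38-fold and 66.2-fold. These differences are what the rule selected and are given as a description. Both Joyau arrays lay above all 4 Ae. tauschii and all 6 synthetic arrays in 30 of 30 members, where 18.2% of the 18189 tested probe sets showed the same, and no reading is made of a count that the rule fixes. In bulk RNA of whole plants, fewer cells of a type and less RNA per cell cannot be told apart.

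**Figure D1:**
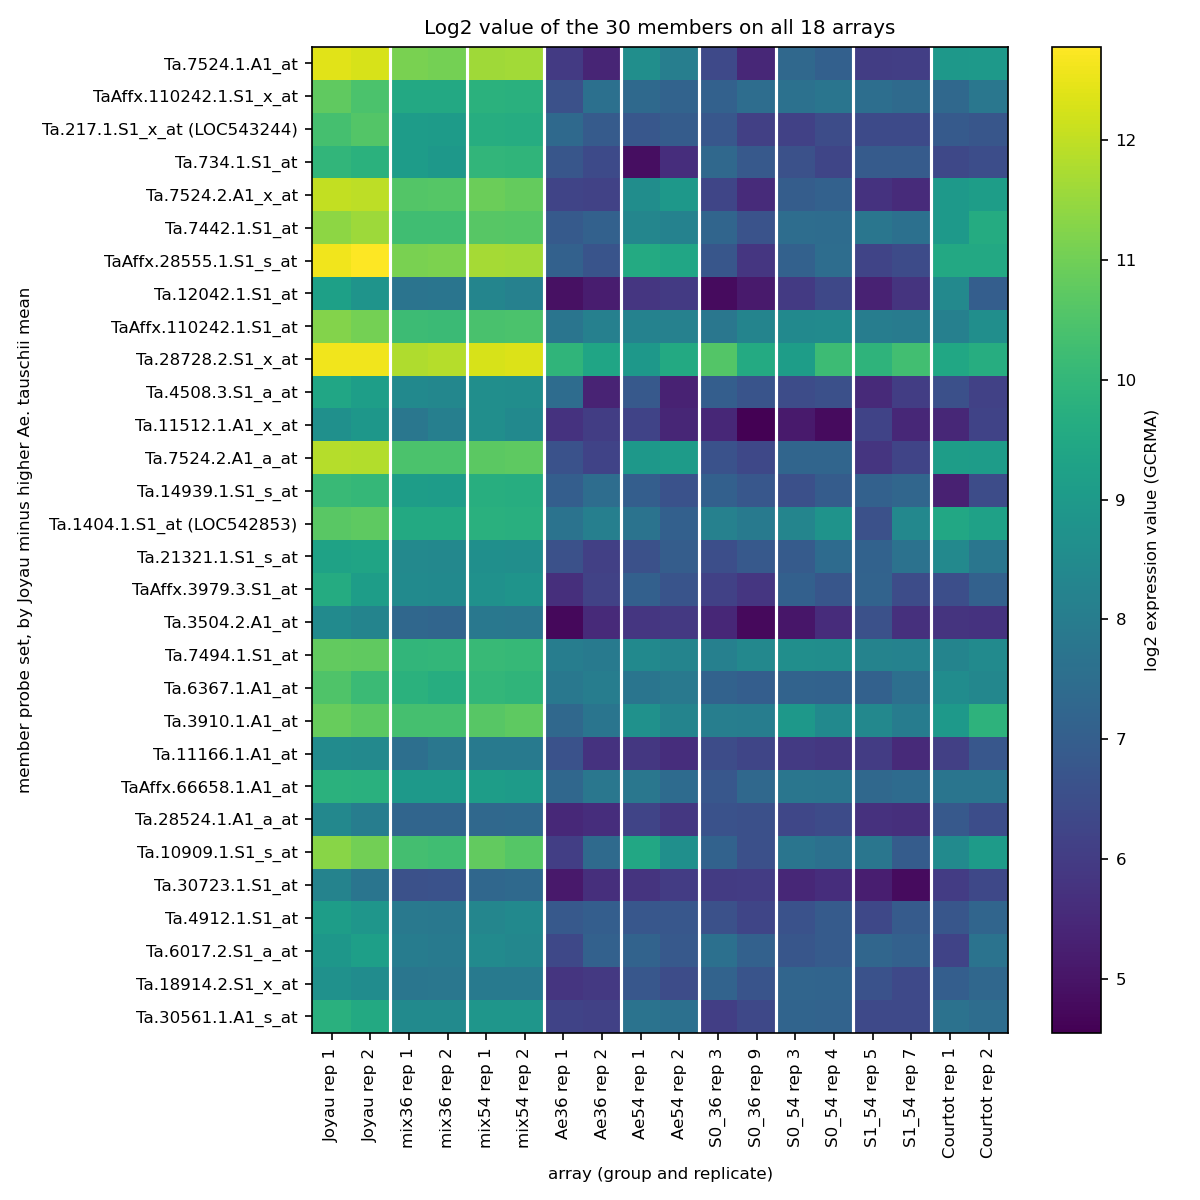
Log2 expression value (colour) of each of the 30 members (rows, ordered by Joyau minus the higher Ae. tauschii mean) on each of the 18 arrays (columns, by group and replicate). The Joyau columns are brighter than every Ae. tauschii, synthetic and Courtot column in all 30 rows, the mix columns are brighter than every synthetic column, and 7 rows are brighter in Ae54 than in Ae36 by 1 or more.

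The largest gap between parents was that of Ta.7524.1.A1_at, a probe set with no gene symbol in the probe table. It read 12.40 and 12.27 on the Joyau arrays, 5.96 and 5.39 in Ae36, and 8.61 and 8.06 in Ae54. The synthetics read 6.37 and 5.47 in S0_36, 7.34 and 7.07 in S0_54, and 6.05 and 6.09 in S1_54. Every synthetic array thus lay below both Ae54 arrays, and Joyau exceeded the mean of the synthetics 61.3-fold. The other members of the same cluster, Ta.7524.2.A1_x_at and Ta.7524.2.A1_a_at, also had Joyau and the mixes highest and every synthetic group below Ae54, and they are not independent of it. Their Joyau means were 11.98 and 11.85, and their S1_54 means were 5.67 and 6.03.

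TaAffx.28555.1.S1_s_at had the largest fold between Joyau and the synthetics, 66.2. Its arrays read 12.61 and 12.78 in Joyau, 7.09 and 6.69 in Ae36, and 9.58 and 9.43 in Ae54. In the synthetics they read 6.74 and 5.86 in S0_36, 7.11 and 7.49 in S0_54, and 6.24 and 6.44 in S1_54. Both generations of the cross with accession 54 were again below both arrays of that accession.

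LOC543244, measured by Ta.217.1.S1_x_at, is 1 of 2 members with a gene symbol. It read 10.34 and 10.59 in Joyau, 7.35 and 6.92 in Ae36, and 6.78 and 6.93 in Ae54. The synthetic arrays read 6.79 and 6.10 in S0_36, 6.13 and 6.47 in S0_54, and 6.40 and 6.40 in S1_54, all below Joyau by more than 3 and close to or below the diploid arrays. LOC542853, measured by Ta.1404.1.S1_at, read 10.67 and 10.74 in Joyau, 7.68 and 8.10 in Ae36, and 7.69 and 7.07 in Ae54. Its synthetic arrays read 8.17 and 7.92 in S0_36, 8.29 and 8.78 in S0_54, and 6.58 and 8.39 in S1_54, where the replicates were far apart. Neither symbol comes with a described function in the sources used here.

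A further 4 probe sets complete the 8 with the largest parental gaps. TaAffx.110242.1.S1_x_at had means of 10.61 ± 0.24 in Joyau, 7.10 ± 0.70 in Ae36 and 7.26 ± 0.12 in Ae54 (SD, n = 2), and its synthetic means lay between 7.30 and 7.68. For Ta.734.1.S1_at, Joyau was at 9.88 ± 0.11, Ae36 at 6.58 ± 0.23 and Ae54 at 5.24 ± 0.53, with synthetics from 6.43 to 7.08. Ta.7442.1.S1_at stood at 11.47 ± 0.15 in Joyau, 6.99 ± 0.17 in Ae36 and 8.26 ± 0.09 in Ae54, with synthetics from 6.95 to 7.68. Ta.12042.1.S1_at stood at 9.01 ± 0.30 in Joyau, 5.07 ± 0.20 in Ae36 and 5.90 ± 0.08 in Ae54, with synthetics from 4.96 to 6.13. Replicates of some members were farther apart: Ta.4508.3.S1_a_at read 7.44 and 5.36 in Ae36 and 6.85 and 5.35 in Ae54, so its place in the set rests on widely spread diploid arrays. It was picked as an example after its values were seen.

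**Figure D2:**
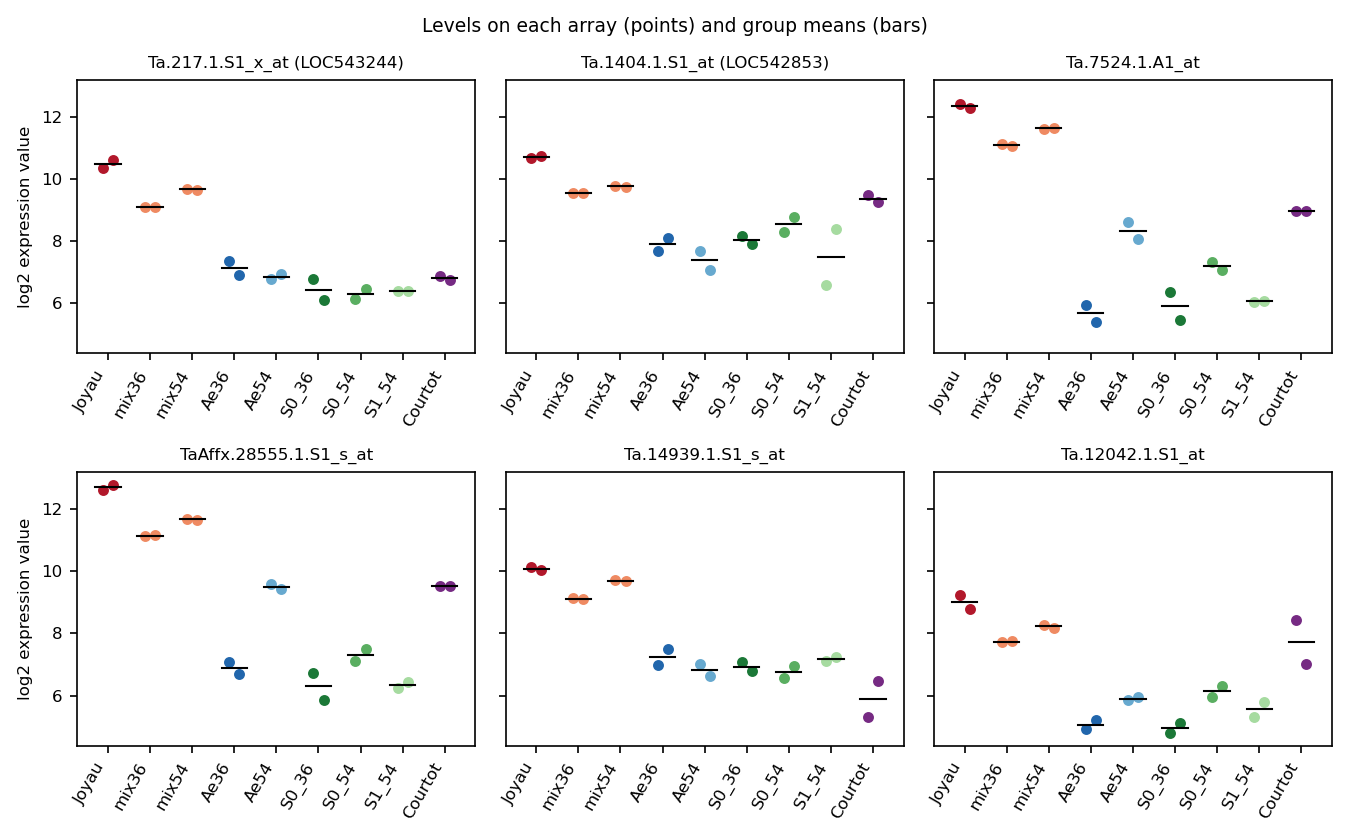
Log2 expression value on each array (points) and group mean (bars) for 6 members, with the groups on the horizontal axis. In LOC543244 Courtot sits with the synthetics and the diploids, while in LOC542853 and Ta.12042.1.S1_at it sits above them, and in Ta.14939.1.S1_s_at below them.

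The RNA mixes give the level that an array reports when both parental RNAs are present in equal amounts and no rule was applied to them. A mix holds Joyau RNA, and the labels do not say whether it came from the plants on the Joyau arrays, so high values in the mixes are not evidence from separate plants. Mix36 lay between Joyau and Ae36 in 30 of 30 members and mix54 between Joyau and Ae54 in 29. The exception was Ta.734.1.S1_at, at 9.95 in mix54 and 9.88 in Joyau. Measured minus computed, where the computed level is the log2 of the mean of the linear parental values, the difference had a median of -0.17 in mix36 (range -0.60 to 0.42) and 0.08 in mix54 (range -0.31 to 1.02). The upper end was again Ta.734.1.S1_at. The arrays therefore reported mixed RNA of these members near the arithmetic mean of the parents.

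All 4 mix arrays lay above all 6 synthetic arrays in 30 of 30 members, against 19.4% of the tested probe sets. The synthetic means entered the rule, so this count too is a description. S0_36 lay below mix36 by 0.61 to 5.18 with a median difference of -2.17. The median was -2.08 for S0_54 and -2.47 for S1_54, each against mix54. A hexaploid carries more tetraploid than diploid genome, and against a computed mean that weights Joyau 2 to 1 the medians were -2.64, -2.32 and -2.49 for S0_36, S0_54 and S1_54. In all 30 members each synthetic group was at least 1.00 below that weighted mean.

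**Figure D3:**
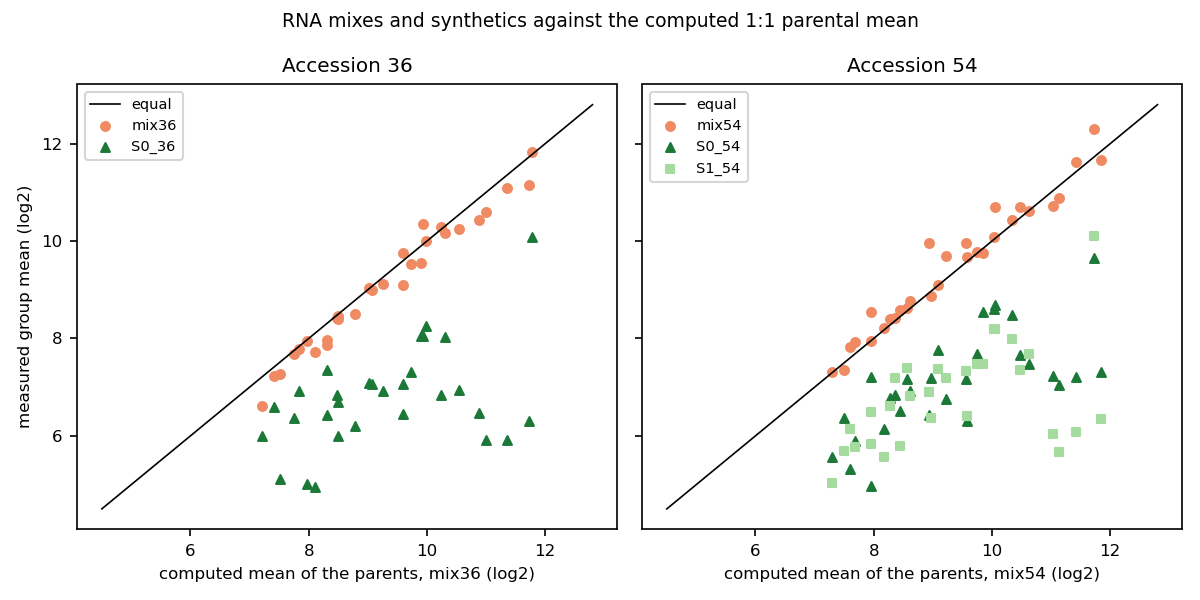
Measured group mean against the computed equal-weight mean of the parents (both log2) for the 30 members, for accession 36 on the left and accession 54 on the right. Circles are the RNA mixes, which lie near the line of equality, and triangles and squares are the synthetics, all below it. The rule itself places the synthetics below the line.

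The mixes were compared with each other in the linear model, which uses no array of the rule for this contrast beyond its estimate of the spread. Mix36 was lower than mix54 by a median of 0.36 over the members, with differences from -0.92 to -0.08, below 0 in 30 of 30. None of the members passed limma's moderated test with Benjamini-Hochberg adjustment in either direction, and 1 had an unadjusted p under 0.05. With the mix arrays counted separately, 1 passed as lower. Among all tested probe sets 2.06% passed as higher in mix36 and 0.66% as lower. The Joyau-high probe sets shared the shift, with 269 of 291 below 0 and the same median of -0.36, while all tested probe sets had a median of -0.09.

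Courtot took no part in the rule, and its level is the independent measurement of these transcripts in a hexaploid. Its mean lay inside the window in 24 of 30 members, or 80.0%. Among the 261 Joyau-high probe sets that were not members, it lay there in 40, or 15.3%. Over all 18189 tested probe sets, which were not chosen for a gap between the parents, the share was 70.4%. By the number of synthetic groups in the window, Courtot was inside for 23 of 222 probe sets (10.4%) with none, 10 of 24 (41.7%) with 1, and 7 of 15 (46.7%) with 2. The edges of the window come from the same Ae. tauschii arrays for Courtot and for the synthetics, so the error of those means is shared and no test was made of these shares. The window is wide where the accessions differ. A Courtot mean inside it can lie well above the synthetics, by 2.87 in TaAffx.28555.1.S1_s_at. The mixes were inside the window in 1 member for mix36 and 0 for mix54, and in 4 and 3 of the 261 other probe sets. Their shares over all tested probe sets were 77.2% and 67.6%.

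Relative to Joyau, Courtot was lower in all 30 members, by a median of 2.40 on the log2 scale and by 2.34-fold to 18.2-fold. Both Courtot arrays lay below both Joyau arrays in each of them, against 35.7% of the tested probe sets, but the members were chosen for high values on those Joyau arrays and nothing is read from this count. Its distance from the higher Ae. tauschii mean had a median of 0.13 and ranged from -1.36 to 1.82. Among the 261 Joyau-high probe sets outside the set, 144 had a Courtot mean within 1 of the Joyau mean, against 0 members. For comparison, 165 of those 261 were within 1 of Joyau in S0_36, 171 in S0_54 and 150 in S1_54, so the majority of those probe sets were near the tetraploid level in each synthetic group.

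**Figure D4:**
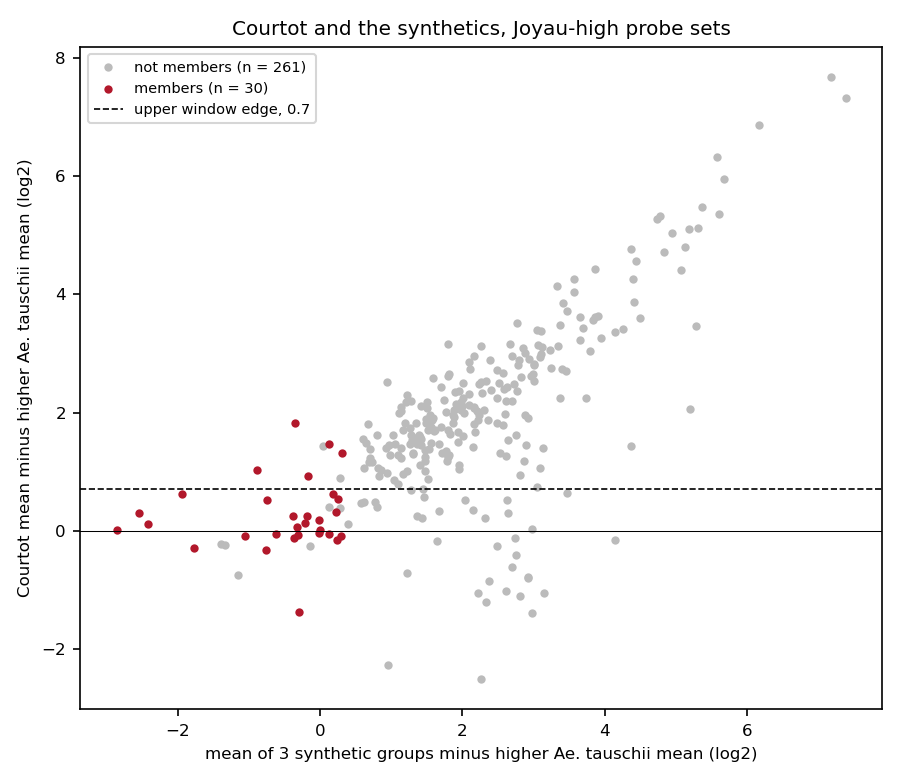
Courtot mean (vertical) and the mean of the 3 synthetic groups (horizontal), each minus the higher Ae. tauschii mean on the log2 scale, for the 30 members and the 261 other Joyau-high probe sets. Members lie near 0 on the vertical axis apart from 5 above the upper edge of 0.7 and 1 at -1.36, while most other probe sets lie well above it.

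Courtot was above the window in 5 members. Ta.12042.1.S1_at exceeded the higher Ae. tauschii mean by 1.82, but its Courtot arrays read 8.42 and 7.02. LOC542853 exceeded it by 1.47, with Courtot arrays of 9.47 and 9.26, both above every Ae. tauschii and synthetic array. The others were Ta.21321.1.S1_s_at at 1.31, Ta.7442.1.S1_at at 1.03 and Ta.3910.1.A1_at at 0.93. Below the window lay Ta.14939.1.S1_s_at alone, with Courtot arrays of 5.31 and 6.47, both lower than the lowest array of any other group for that probe set, which was 6.55.

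Courtot was then tested against the mean of both mixes. Both mixes hold Joyau RNA but enter the model as independent of each other, so error they share is not counted in the p-values. In limma's moderated test, 23 of the 30 members were lower in Courtot at an adjusted p under 0.05, 0 were higher and 7 did not pass. Over all tested probe sets 9.72% passed as lower and 7.3% as higher. Among the 261 other Joyau-high probe sets, which share the high Joyau contribution to the mixes, 30 (11.5%) were lower and 5 higher. The median difference was -1.57 in the members, -0.21 in those others and -0.09 over all tested probe sets. Both Courtot arrays lay below all 4 mix arrays in 28 of 30 members, against 29.9% of the tested probe sets. Without Courtot replicate 1, 17 members passed as lower, and Ta.10909.1.S1_s_at, Ta.11166.1.A1_at, Ta.3910.1.A1_at, Ta.4508.3.S1_a_at, Ta.4912.1.S1_at and Ta.7442.1.S1_at were the 6 lost. Counting each mix array separately gave 27.

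Ta.14939.1.S1_s_at had the lowest difference. Its mixes read 9.12 and 9.10 in mix36 and 9.70 and 9.69 in mix54, and Courtot was lower by 11.4-fold (-3.51, 95% interval -4.29 to -2.74, adjusted p = 5.2e-05). Ta.734.1.S1_at came next, with Courtot arrays of 6.32 and 6.51 against mix arrays of 8.94 to 9.96 (-3.07, adjusted p = 2.44e-05). LOC543244 read 6.89 and 6.75 in Courtot, 9.10 and 9.08 in mix36 and 9.68 and 9.65 in mix54. Courtot was 5.89-fold lower in LOC543244 (-2.56, SE 0.26, adjusted p = 5.93e-05), and none of its arrays came near a mix array. Ta.28728.2.S1_x_at, Ta.11512.1.A1_x_at and Ta.7524.1.A1_at followed at -2.50, -2.41 and -2.40.

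The 6 passing members with the smallest differences were Ta.3910.1.A1_at at -1.10 (adjusted p = 0.0371), Ta.30561.1.A1_s_at at -1.12, Ta.4912.1.S1_at at -1.14, Ta.7442.1.S1_at at -1.15, TaAffx.66658.1.A1_at at -1.30 and Ta.11166.1.A1_at at -1.36. Of the 7 that did not pass, 3 had intervals that included 0. These were Ta.12042.1.S1_at at -0.26 (95% interval -1.13 to 0.61), LOC542853 at -0.29 (-1.34 to 0.76) and Ta.21321.1.S1_s_at at -0.42 (-1.10 to 0.26), and all had Courtot above the window. Ta.6017.2.S1_a_at had a difference of -1.25 with Courtot arrays of 6.20 and 7.69 (adjusted p = 0.072). Ta.30723.1.S1_at, Ta.18914.2.S1_x_at and Ta.28524.1.A1_a_at, the first and the last named after their values were seen, had differences of -0.80, -0.71 and -0.63 with adjusted p from 0.0552 to 0.0666.

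**Figure D5:**
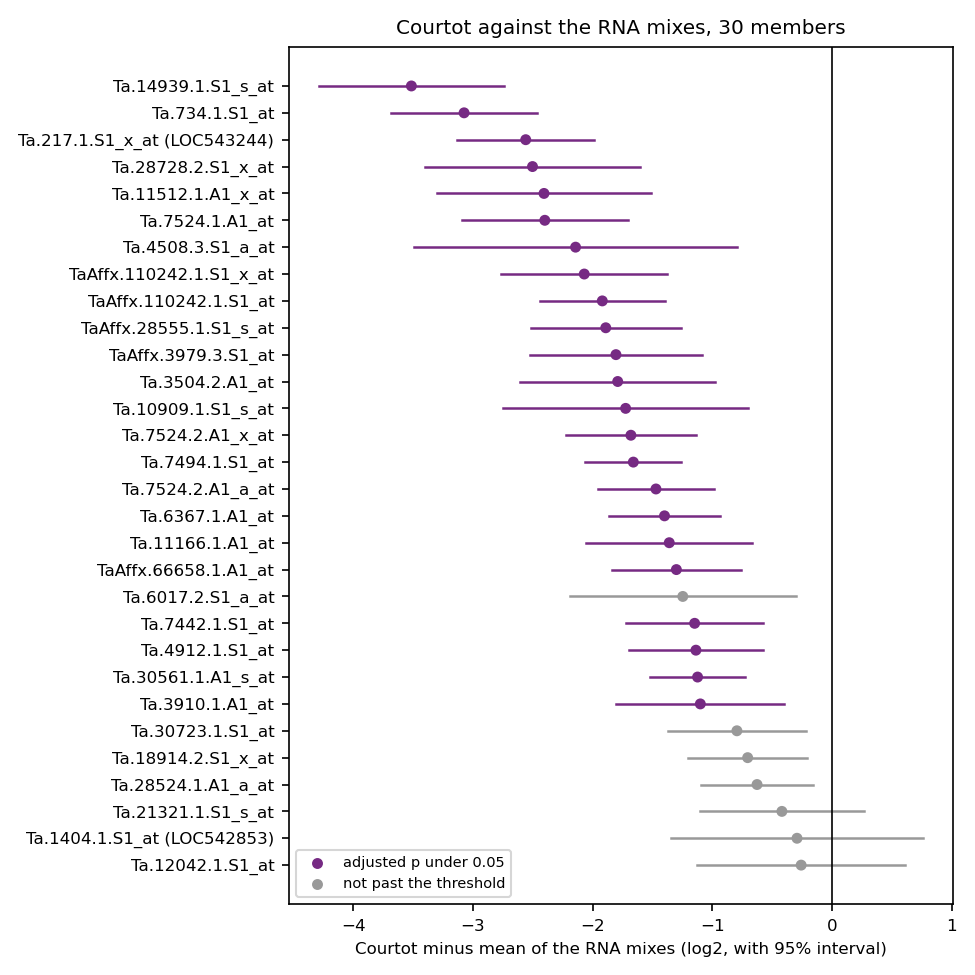
Courtot minus the mean of both RNA mixes (log2) for each of the 30 members, with the unadjusted 95% interval of the limma fit. Purple marks the 23 members past an adjusted p of 0.05 and grey the 7 that are not, and 3 grey intervals cross 0.

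Courtot was not at the same level as the synthetics throughout. It lay above the mean of the 3 synthetic groups in 25 of 30 members, with a median difference of 0.44 and a range from -1.06 to 2.87. In 11 members it was 1 or more above, and in 1, Ta.14939.1.S1_s_at, 1 or more below. These differences involve groups that the rule used, so they carry no test. The rule capped the synthetic means but not Courtot, so a higher Courtot is favoured by the selection. In the other Joyau-high probe sets the median distance from the higher Ae. tauschii mean was 1.88 in Courtot. It was 2.10 in S0_36, 2.07 in S0_54 and 2.10 in S1_54.

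The diploid accessions themselves differed in some members. In 7 members Ae54 was at least 1 above Ae36: Ta.7524.1.A1_at, Ta.7524.2.A1_x_at, Ta.7524.2.A1_a_at, Ta.7442.1.S1_at, TaAffx.28555.1.S1_s_at, Ta.10909.1.S1_s_at and Ta.30561.1.A1_s_at. The window is wide in these members, since it spans both accessions. Of these, Ta.7524.2.A1_a_at and Ta.10909.1.S1_s_at were named after their values were seen. In the 7, the rule allowed synthetic means down to 0.9 below Ae36 but only up to 0.7 above Ae54. The grouping used the same Ae. tauschii means, so the positions of the synthetics given next are a description that the selection favours. S0_54 and S1_54 lay below their own diploid parent in all 7, by 1 or more in 5 and 6 of them, with medians of -1.40 and -2.26. The S1_54 mean was nearer to Ae36, a plant not in its pedigree, in 6 of the 7, and the S0_54 mean in 5. Courtot was nearer to Ae54 in 7 of 7, and lay 0.98 to 2.87 above the synthetics. It was also nearer to Ae54 in 16 of the 22 members whose accessions were within 1 of each other, so this is not particular to the 7. Ta.7524.1.A1_at, Ta.7524.2.A1_x_at and Ta.7524.2.A1_a_at share 1 cluster, so the 7 are not independent of each other. S0_36 lay close to its own parent Ae36, with a median difference of 0.02.

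Ta.10909.1.S1_s_at shows the spread in such members. It read 11.30 and 11.03 in Joyau, 6.07 and 7.41 in Ae36, and 9.49 and 8.65 in Ae54. The synthetics read 7.12 and 6.56 in S0_36, 7.75 and 7.58 in S0_54, and 7.77 and 6.95 in S1_54, while Courtot read 8.48 and 9.06. No synthetic array of the cross with accession 54 reached an Ae54 array, although the Ae36 replicates were far apart. The reverse order, Ae36 at least 1 above Ae54, was found in 1 member, Ta.734.1.S1_at, where S0_54 and S1_54 lay 1.19 and 1.67 above Ae54.

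For the 22 members whose accessions were within 1 of each other, S0_36 minus Ae36 had a median of 0.16, S0_54 minus Ae54 of 0.18 and S1_54 minus Ae54 of -0.14. The rule holds the synthetics near both accessions in these members, where the window is narrow, so nothing is read from the contrast with the 7 above.

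Generation 1 of the cross with accession 54 was lower than generation 0 in 20 of 30 members, with a median of -0.35 and a range from -1.37 to 0.86, and in 4 members by 1 or more. S0_36 was likewise lower than S0_54 in 20 of 30 members, with a median of -0.36. Both comparisons use means that the rule had confined to the window. Over all tested probe sets, the median distance from the higher Ae. tauschii mean was -0.38 in S1_54, -0.28 in S0_36 and -0.22 in S0_54. In the members these medians were -0.33 in S1_54, -0.47 in S0_36 and -0.16 in S0_54. S0_54 was the highest in both, although the order of S1_54 and S0_36 differed. A shift particular to the members is therefore not claimed. The spread of replicates differed by group, with a mean SD over the members of 0.310 in S0_36, 0.174 in S0_54 and 0.263 in S1_54.

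Near the limits the set has no natural edge. Just inside the Joyau limit were Ta.30561.1.A1_s_at and Ta.18914.2.S1_x_at at 2.01 and Ta.6017.2.S1_a_at at 2.05, and just outside TaAffx.49829.1.S1_at at 1.99 and Ta.6113.2.S1_x_at and TaAffx.57475.1.S1_x_at at 1.96. At the upper synthetic limit, LOC542853 was inside at 0.64, Ta.21321.1.S1_s_at at 0.61 and Ta.18914.2.S1_x_at at 0.59. TaAffx.3524.1.S1_at was outside at 0.70, and TaAffx.58678.1.S1_at and Ta.9229.1.S1_x_at at 0.73. At the lower synthetic limit the members reached -0.85 from the lower Ae. tauschii mean, and their lowest Ae. tauschii mean was 5.07. Leaving out 1 array at a time gave sets of 24 to 35, with 24 without Joyau replicate 1 and 35 without Joyau replicate 2. Of the 30 members, 12 stayed in whichever array was left out, and Courtot was inside the window in 9 of these 12. Without Ae54 replicate 1, whose labels conflict, 28 probe sets met the rule, 27 of them among the 30, and Courtot was inside the window in 22 of the 28.

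The members fell in 27 clusters by the name in the probe set ID. The suffix of an ID describes the probes: _a_at for transcript variants of 1 gene, _s_at for probes shared by several transcripts, and _x_at where some probes also match other sequences. Of the members, 15 ended in plain _at, 4 in _a_at, 5 in _s_at and 6 in _x_at. The _x_at share was 20.0%, against 33.3% of the Joyau-high probe sets and 17.9% of all tested ones. Among the 15 with the plain suffix, 12 were lower in Courtot than in the mixes and Courtot lay inside the window in 11. With 1 member per cluster these counts were 20 and 21 of 27.

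Other probe sets of the same clusters were also described. There were 32 that were not members, 27 of them tested, and 15 of the 27 had an Ae. tauschii mean under 5, which keeps them out by the rule. Joyau lay above both Ae. tauschii means in 25 of the 27, by 1 or more in 19 and by 2 or more in 13, and in 0 was it 1 or more below both. The mean of the synthetics was 1 or more below Joyau in 24, and Courtot in 17. Of the 13 with a gap of 2 or more, all synthetic means were inside the window in 4 and Courtot in 3. Probe sets of a cluster can share transcripts, so these are not separate genes. The clusters were picked through members with high Joyau and low synthetic values, and no matching shares over all tested probe sets are given. Over all tested probe sets, Joyau minus the higher Ae. tauschii mean had a median of -0.15. Nothing is read from the counts.

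Ta.10909.1.S1_x_at, the companion of Ta.10909.1.S1_s_at, had means of 9.97 in Joyau, 4.39 in Ae36 and 5.10 in Ae54, and 4.39, 5.50 and 5.33 in S0_36, S0_54 and S1_54. Courtot was at 6.27 and the mixes at 9.03 and 9.65, so its synthetics lay near the diploid level while Courtot lay above it, outside the window. Another pair differed. The member Ta.3504.2.A1_at had 8.37 in Joyau and 5.76 in Courtot, while Ta.3504.1.A1_at had 9.96 in Joyau and 10.48 in Courtot, with synthetics from 5.14 to 7.78. Both examples were chosen after their values were seen.

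The opposite pattern was rarer under the mirrored rule. Of 268 probe sets with a Joyau mean of 5 or more and both Ae. tauschii means at least 2 above it, 3 (1.12%) had all 3 synthetic means from 0.9 below to 0.7 above the Joyau mean, against 30 of 291 (10.3%) in the direction described here. The windows are not of equal width, since that of the members spans both accessions and the mirrored one a single Joyau mean, so the shares are not a like-for-like comparison.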

How the data were processed

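The authors deposited log2 expression values for each probe set on each array. Per the submitters' processing notes they come from GCRMA, whose version is not given in the sources used here. GCRMA corrects background by probe sequence, normalises arrays to a common distribution and summarises the probes, and its background model compresses differences near the floor. Of 61290 probe sets, 111 controls were left out. Value columns that matched no sample numbered 0.

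Groups came from the labels. Group means, window positions and folds (2 to the power of the log2 difference) were computed from the deposited values. The tests took the 18189 probe sets that reached 5 on 2 or more arrays, and all 30 members were among them. The members passed this filter partly through Joyau, where they had to be high. One mean per group was fitted with limma 3.58.1 in R 4.3.3 to 16 samples, each mix averaged to 1, with 7 residual and 3.44 prior degrees of freedom. Tests were two-sided, with Benjamini-Hochberg adjustment over all tested probe sets and a threshold of 0.05. A mix holds no variation between plants of its own and is treated as varying like the plant groups. The number of arrays limits the precision. The code was tested on simulated data.

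Genes were named from a probe table that gives 1 symbol to 1273 probe sets and none to 60017. The text names members with a symbol, the 8 with the largest Joyau gap, the 6 lowest and 6 highest passing differences of Courtot from the mixes, and the 3 probe sets on either side of the Joyau and upper limits, others being marked as chosen after their values were seen. Members not named are in the plots. The members and lists were chosen with earlier results of these data known. Alternatives were mix arrays counted separately, a replicate block, other scaling, filters, array weights, rule limits and leaving out each array. Restricting members by suffix or cluster was added after seeing the data. Same-numbered arrays of the 6 groups numbered 1 and 2 had correlated deviations over 0.1 in 2 of 15 pairs of groups (range -0.056 to 0.228, highest for Joyau with Ae54), and between -0.0119 and 0.0172 among Courtot and the mixes, so the numbers were not taken to pair the samples.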

Additional observations from a re-analysis of the deposited data

How the results depend on the processing

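Over 26 alternatives, 17 of the 23 members lower in Courtot than in the mixes passed in every one, and 3 members passed in none. With mix arrays counted separately 27 members passed, and over all probe sets 3380 passed as lower and 2320 as higher in place of 1768 and 1327. With the replicate block (separate mix arrays, 6 groups numbered 1 and 2 only) 27 members passed, and 2959 and 2266 of all tested probe sets; the same fit without the block gave 27, 3081 and 2339. The numbers were not taken to pair the samples, since deviations correlated over 0.1 in 2 of 15 pairs of groups. A filter of 7 left 834 higher and 26 members; no filter left 20 members. For mix36 minus mix54, separate mix arrays gave 1 member lower, with 815 lower and 1261 higher of all tested, and the replicate block 618 and 1150, in place of 120 and 374. Leaving out each array gave 17 to 24 members lower in Courtot, 0 higher, a median of -1.76 to -1.49, 740 to 2080 lower of all tested and 690 to 1452 higher, with the lowest counts of passing probe sets without Courtot replicate 1. For mix36 minus mix54 it gave 93 to 152 lower, 299 to 406 higher, 0 members and a median of -0.37 to -0.36. Ta.12042.1.S1_at ranged from -0.96 to 0.44, turning to 0.44 without Courtot replicate 2. The rule found 87 probe sets with a Joyau gap of 1.5, 16 with 2.5 and 61 with an Ae. tauschii minimum of 4. With the set chosen anew under each of 26 alternatives, Courtot lay inside the window in 68.8% to 84.0% of it and in 8.78% to 22.6% of the other Joyau-high probe sets. With the 30 members fixed and the edges recomputed, leaving out each array put Courtot inside in 22 to 25 members and 25 to 46 others (25 without Courtot replicate 1), mix36 in 0 to 1 and 3 to 14, and mix54 in 0 and 3 to 15, the highest without Ae54 replicate 1. Quantile normalization put mix36 inside in 8 others and mix54 in 6; median centring put mix36 inside in 0 members, and the plain suffix in 1 of 15. Causes were not tested. Values near the floor limit what the arrays resolve.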
